A study of Mus musculus with 4 samples.

Results

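The genes described here encode proteins of DNA replication and of mitosis, together with the transcription factors that drive both. They were given as a list of 56 symbols, and all 56 were found among the 54532 genes of the deposited table. All 56 were also abundant enough to be tested, with 1 FPKM or more on average. FPKM counts reads relative to the length of the gene and to the depth of the library. Mean levels ran from 1.104 FPKM for Chek1, a checkpoint kinase, to 52.1 FPKM for Pcna, the sliding clamp of DNA polymerases.

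RNA sequencing had been done on total RNA from cells of CB6F1 mice, an F1 hybrid laboratory strain, which the labels call MSCs. The cells had been released from unfractionated bone marrow by digestion and grown in high-glucose DMEM with serum and antibiotics. There were 2 libraries from cells given an agent that the labels name only R, at 0.5 µM (the labels write "um"), and 2 from cells given the solvent DMSO, here called vehicle. The titles of all 4 carry the term aGVHD, no library of another kind was analysed, and the labels give no age, genotype or treatment time. They also do not say that the replicates were separate animals or cultures. The p-values thus set the difference between the groups only against the variation among these libraries, and that variation may be technical.

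A cell copies its DNA in S phase and divides the copies in mitosis. Before S phase, the MCM helicase is loaded at replication origins, and E2F transcription factors raise transcripts for the helicase, the clamp and the enzymes of nucleotide synthesis. Later in the cycle the factors MYBL2 and FOXM1, with the MuvB complex, raise transcripts for cyclin B, mitotic kinases, kinetochore proteins and spindle motors. In bulk RNA the level of these genes follows the share of cells in cycle and the amount of each transcript per cell, and these cannot be told apart here.

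The 2 classes of genes differed in the short sequences of their promoters. RefSeq windows of 300 bases, from 250 before to 50 after a start site (GRCm38.p6), were found for 47 of the 56 genes. The CHR core, to which MuvB complexes bind, was searched as TTTGAA or TTCGAA on both strands. It was in the windows of 23 of 28 mitotic genes with an entry (82.1%) and of 3 of 15 replication and S-phase genes (20%), beside 21.7% of all 27025 genes with an entry. The E2F core was searched as TTTCCCGC, TTTGGCGC, TTCCCGCC or TTGGCGCC on both strands, of which some can overlap. It was in the windows of 9 of 15 replication and S-phase genes (60%), 2 of 28 mitotic genes (7.14%) and 4.34% of all genes. The CCAAT box, searched as CCAAT on both strands, was in 78.6% of mitotic genes, 66.7% of replication and S-phase genes and 41.1% of all genes. Of the 4 transcription factors and E-type cyclins with an entry, 0 held an E2F core, 1 a CHR core and 1 a CCAAT box. A gene counted if any of its listed windows held a match. A match describes the letters in this window and is not a measured binding site.

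**Figure D1:**
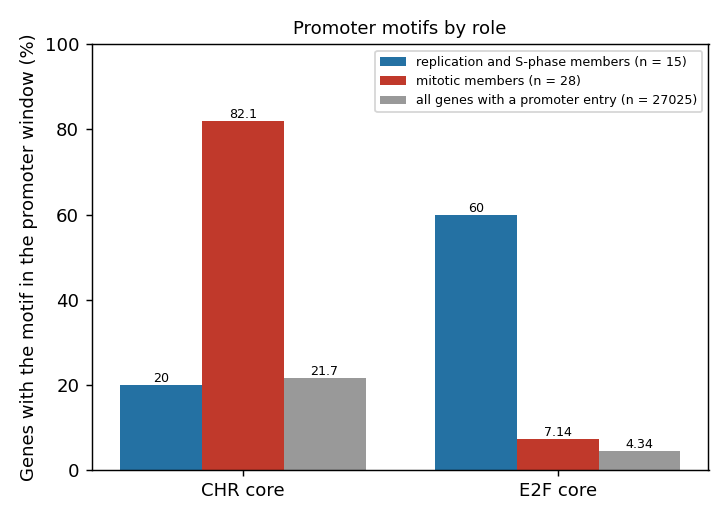
Share of genes (percent, vertical axis) whose 300-base promoter window holds a CHR core or an E2F core, for replication and S-phase genes, mitotic genes and all genes with an entry. The CHR core is in 82.1% of the mitotic genes and the E2F core in 60% of the replication and S-phase genes.

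The windows below belong to the replication genes and the mitotic genes whose levels differed most clearly between R and vehicle, by p-value, among those with an entry. They are shown so that the position and order of the motifs can be read. Each is written 5′ to 3′ on the strand of its gene, and capitals mark matches to the CHR core, the CCAAT box and the E2F core. The replication genes are Mcm5 (chr8:75109259-75109558, plus strand), Mcm2 (chr6:88898731-88899030, minus), Rrm2 (chr12:24708004-24708303, plus) and Mcm7 (chr5:138171834-138172133, minus).
Mcm5: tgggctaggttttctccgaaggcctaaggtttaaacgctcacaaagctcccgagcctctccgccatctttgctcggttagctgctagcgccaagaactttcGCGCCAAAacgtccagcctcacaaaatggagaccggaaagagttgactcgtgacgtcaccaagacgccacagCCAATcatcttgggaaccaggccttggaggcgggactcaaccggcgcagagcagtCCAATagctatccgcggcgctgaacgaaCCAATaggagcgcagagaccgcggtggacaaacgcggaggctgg
Mcm2: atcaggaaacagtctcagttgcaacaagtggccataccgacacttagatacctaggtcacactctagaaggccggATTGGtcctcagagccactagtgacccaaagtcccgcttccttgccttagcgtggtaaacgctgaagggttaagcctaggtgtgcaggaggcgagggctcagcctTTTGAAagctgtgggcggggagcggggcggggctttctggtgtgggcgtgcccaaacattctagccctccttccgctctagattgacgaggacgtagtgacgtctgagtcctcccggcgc
Rrm2: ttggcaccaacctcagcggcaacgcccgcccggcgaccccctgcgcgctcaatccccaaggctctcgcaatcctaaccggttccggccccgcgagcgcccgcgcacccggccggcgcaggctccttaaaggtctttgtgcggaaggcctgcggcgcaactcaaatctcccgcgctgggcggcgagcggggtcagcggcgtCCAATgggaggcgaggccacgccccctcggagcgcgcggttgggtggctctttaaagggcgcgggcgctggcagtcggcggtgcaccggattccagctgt
Mcm7: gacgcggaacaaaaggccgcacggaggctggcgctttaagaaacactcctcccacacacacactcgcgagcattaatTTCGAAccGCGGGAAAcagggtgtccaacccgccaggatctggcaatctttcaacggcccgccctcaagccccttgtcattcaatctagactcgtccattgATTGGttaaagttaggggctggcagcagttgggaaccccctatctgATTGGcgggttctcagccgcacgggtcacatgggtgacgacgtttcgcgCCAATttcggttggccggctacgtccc

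The mitotic genes are Plk1 (chr7:122159185-122159484, plus strand), Cdc20 (chr4:118437294-118437593, minus), Ccnb1 (chr13:100786437-100786736, minus) and Prc1 (chr7:80294201-80294500, plus).
Plk1: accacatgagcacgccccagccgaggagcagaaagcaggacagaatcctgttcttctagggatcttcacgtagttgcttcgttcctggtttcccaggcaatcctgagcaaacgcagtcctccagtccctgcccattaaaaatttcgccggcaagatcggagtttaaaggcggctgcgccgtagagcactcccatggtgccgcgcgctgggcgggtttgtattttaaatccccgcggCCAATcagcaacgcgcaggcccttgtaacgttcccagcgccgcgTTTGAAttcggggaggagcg
Cdc20: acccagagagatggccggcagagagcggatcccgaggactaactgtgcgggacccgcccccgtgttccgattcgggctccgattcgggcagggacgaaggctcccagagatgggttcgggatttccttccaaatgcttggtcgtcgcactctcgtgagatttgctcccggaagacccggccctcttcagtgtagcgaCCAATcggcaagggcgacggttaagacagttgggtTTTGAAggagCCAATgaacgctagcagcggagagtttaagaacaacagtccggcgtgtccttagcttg
Ccnb1: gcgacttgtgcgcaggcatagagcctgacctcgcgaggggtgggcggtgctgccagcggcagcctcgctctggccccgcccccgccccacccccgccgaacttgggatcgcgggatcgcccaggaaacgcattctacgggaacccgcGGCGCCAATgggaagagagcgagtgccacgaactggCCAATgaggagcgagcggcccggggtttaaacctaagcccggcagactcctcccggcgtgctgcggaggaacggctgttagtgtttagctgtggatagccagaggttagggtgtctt
Prc1: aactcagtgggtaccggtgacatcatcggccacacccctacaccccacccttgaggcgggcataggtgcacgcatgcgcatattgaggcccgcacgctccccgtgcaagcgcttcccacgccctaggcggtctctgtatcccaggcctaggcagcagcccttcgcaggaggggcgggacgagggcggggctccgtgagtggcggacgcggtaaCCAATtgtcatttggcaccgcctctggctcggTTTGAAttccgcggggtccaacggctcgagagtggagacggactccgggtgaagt

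In Cdc20 the CHR core began 18 bases before the start site, between CCAAT boxes that began 53 and 8 bases before it. In Prc1 it began 5 bases before the start site and the CCAAT box 37 bases before it. Plk1 had its CCAAT box 14 bases before and its CHR core 31 bases after the listed start. Ccnb1 had no CHR core of these letters in the window, but had CCAAT boxes 99 and 67 bases before the start, the first of them overlapping an E2F core. Among the replication genes, Mcm5 had an E2F core 149 bases before the start and Mcm7 had one 165 bases before it, next to a CHR core. Mcm2 and Rrm2 had no match to the E2F core.

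Across the whole table, 12176 genes were tested in limma, with Benjamini-Hochberg adjustment over all of them. Reads recovered from the FPKM values numbered 16534440 to 18085183 per library, and each of the 53 members whose reads could be recovered had at least 84 in every library. FPKM sums ran from 287360 in R replicate 2 to 345709 in vehicle replicate 1. Markers of macrophages and monocytes summed to 17251 and 13366 FPKM in R replicates 1 and 2 and to 25450 and 22803 FPKM in vehicle replicates 1 and 2. Lyz2 made up most of each sum, with 8891 and 7061 FPKM in R and 14569 and 12540 FPKM in vehicle. It was not called (limma, Benjamini-Hochberg adjusted p = 0.321). Of the 22 markers, 19 were below both vehicle libraries in both R libraries, an order found in 25.2% of all tested genes. In limma 4 fell at an adjusted p under 0.05, where 1.37% of all tested genes fell. Mesenchymal stromal markers summed to 2248 and 2317 FPKM in R replicates 1 and 2 and to 1890 and 1866 FPKM in vehicle replicates 1 and 2, with Col1a1 and Cxcl12 abundant. Of the 16 that were tested, 3 fell (Ly6a, Lum and Dcn) and 0 rose. At an unadjusted p under 0.05, 4 were higher, where 7.16% of all tested genes were. Both R libraries lay above both vehicle libraries in 9 of the 16 and below them in 3. Those orders were found in 22.7% and 25.2% of all tested genes. Lepr and Thy1, markers of marrow stromal cells, were each under 1 FPKM in every library. The macrophage sum thus exceeded the stromal sum in all 4 libraries, although the labels call the cells MSCs. Neutrophil, T and NK, and erythroid markers summed to at most 8.67 FPKM per list in any library. Of these, 5 of 9, 6 of 9 and 3 of 7 markers were at 0 throughout, among them Ly6g of neutrophils and Cd3e of T cells. The part of these other cells in the results below was not tested.

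No cell cycle gene passed the test. Of the 56 genes, 0 rose and 0 fell at an adjusted p under 0.05, where 0.345% of all tested genes rose and 1.37% fell. At an unadjusted p under 0.05, 9 members were higher in R and 0 lower, where 7.16% of all genes were higher and 8.83% lower. Voom on recovered reads also called 0 of 53 members, where 0.865% of its 11564 genes rose and 1.89% fell. At an unadjusted p under 0.05 it had 10 members higher in R and 0 lower, where 9.69% of its genes were higher. The standard errors of the members' log2 fold changes lay between 0.113 and 0.197. Among all genes the smallest log2 fold change that was called as a rise was 0.78, and the largest of any member, that of Cdc20, was 0.65. With 2 libraries a group, differences of the size seen in the members were below those that the test called.

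Most members were nonetheless somewhat higher in R. The log2 fold change was above 0 in 47 of 56 members, where it was above 0 in 50% of all genes, and the median was 0.15 against 0.00 for all genes, on the log2(FPKM + 1) scale. In 28 of 56 members both R libraries lay above both vehicle libraries, an order found in 22.7% of all genes. In 2 members, Cenpa and Ndc80, both R libraries lay below both vehicle libraries, an order found in 25.2% of all genes. The summed level of the 56 genes was 509 and 517 FPKM in R replicates 1 and 2 and 451 and 448 FPKM in vehicle replicates 1 and 2, a ratio of 1.14. These genes share cells and are not independent of one another, so the counts carry no p-value.

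**Figure D2:**
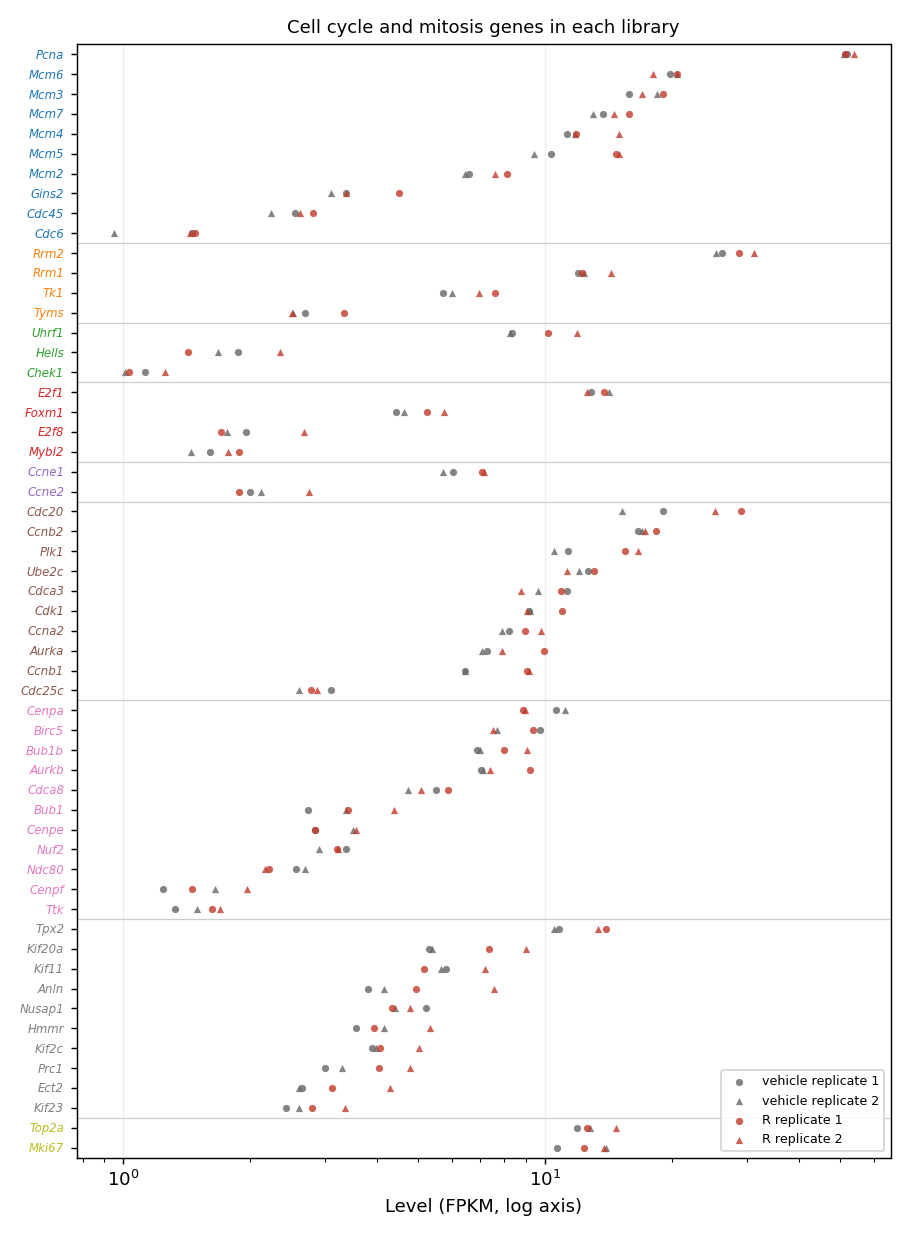
Level of each of the 56 genes (FPKM, log axis) in the 4 libraries, grouped by role and ordered by mean level within each role. Red points are R, grey points vehicle, circles replicate 1 and triangles replicate 2. Mcm5, Plk1, Cdc20, Ccnb1 and Kif20a show both R libraries to the right of both vehicle libraries, while the points of Pcna nearly coincide.

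The MCM complex, the helicase that unwinds DNA at replication forks, has 6 subunits that act together. Of these, 4 were higher in both R libraries than in either vehicle library, and 2 overlapped between the groups. The first order was found in 22.7% of all tested genes. Mcm5 was at 14.7 and 14.9 FPKM in R replicates 1 and 2 and at 10.3 and 9.38 FPKM in vehicle replicates 1 and 2. Both R values lay well above both vehicle values, and this was the member with the smallest p. The ratio of means was 1.502 and the log2 fold change 0.54 (SE 0.119; limma, Benjamini-Hochberg adjusted p = 0.101). Mcm5 (ENSMUSG00000005410) lies at 75109569 to 75128439 of chromosome 8 in GRCm38. It is the gene whose promoter above holds 3 CCAAT boxes and an E2F core. Removal of a gene length trend from each library brought it past the threshold (adjusted p = 0.0427), a setting in which 1.72% of all genes rose.

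The other subunits differed less. Mcm2 was at 8.10 and 7.605 FPKM in R and at 6.59 and 6.47 FPKM in vehicle, so that the groups did not overlap. Mcm7 was at 15.8 and 14.6 FPKM in R and at 13.7 and 13.0 FPKM in vehicle, again without overlap. Its exons overlap those of Ap4m1 and Cops6 on the opposite strand and the miRNA genes Mir25 and Mir93. Mcm4 was at 11.8 and 14.9 FPKM in R and at 11.3 and 11.8 FPKM in vehicle, where R replicate 1 was barely above vehicle replicate 2. Mcm3 was at 19.0 and 16.9 FPKM in R and at 15.8 and 18.4 FPKM in vehicle, and Mcm6, the most abundant subunit, at 20.5 and 18.01 FPKM in R and 19.7 and 20.5 FPKM in vehicle. Both of these overlapped between the groups. The log2 fold change of Mcm6 was -0.06, with a 95% interval from -0.37 to 0.25, and turned to 0.07 on the TPM scale. That of Mcm3 was 0.07 and turned to -0.01 without R replicate 1 and to -0.04 without vehicle replicate 1. Within the complex, Mcm6 was the subunit with the highest FPKM in all 4 libraries and Mcm2 the one with the lowest.

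Pcna, the clamp that holds polymerases on DNA, was the most abundant member and nearly the same in all libraries. It was at 51.4 and 53.7 FPKM in R and at 52.0 and 51.1 FPKM in vehicle. Its log2 fold change of 0.03 had a 95% interval from -0.27 to 0.33. It changed sign, to -0.01, without R replicate 2. Of the other origin and fork proteins, Cdc6, Cdc45 and Gins2, which load or activate the helicase, were at means of 1.20 to 3.94 FPKM in the groups. Their log2 fold changes were 0.17, 0.13 and 0.21, and only Cdc45 did not overlap between the groups. The exons of Cdc45 and Gins2 overlap genes on the opposite strand.

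Of the 4 enzymes of nucleotide supply none passed the test, and both R libraries lay above both vehicle libraries in 2, Rrm2 and Tk1. That order was found in 22.7% of all tested genes. Rrm2, the regulated subunit of ribonucleotide reductase, was at 28.8 and 31.2 FPKM in R and at 26.1 and 25.4 FPKM in vehicle. Rrm1, the large subunit, was at 12.2 and 14.3 FPKM in R and at 11.9 and 12.4 FPKM in vehicle. Rrm2 did not overlap between the groups and Rrm1 did, because R replicate 1 was below vehicle replicate 2. Tk1, the thymidine kinase of S phase, was at 7.62 and 6.94 FPKM in R and at 5.70 and 6.004 FPKM in vehicle, a ratio of 1.24 (limma, Benjamini-Hochberg adjusted p = 0.349). Its exons overlap Afmid on the opposite strand. Tyms, thymidylate synthase, had a log2 fold change of 0.11 and overlapping groups, with R replicate 2 the lowest of the 4 libraries.

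Among the S-phase chromatin and checkpoint genes, Uhrf1, which recruits the maintenance DNA methyltransferase to new DNA, was at 10.2 and 11.9 FPKM in R and at 8.32 and 8.24 FPKM in vehicle. Both R libraries were above both vehicle libraries, with a ratio of 1.33 (limma, Benjamini-Hochberg adjusted p = 0.245). Chek1 was at 1.03 and 1.252 FPKM in R and 1.13 and 1.01 FPKM in vehicle, and overlapped. Its log2 fold change of 0.05 turned to -0.03 without R replicate 2. Hells, a chromatin remodeller, was at 1.42 and 2.36 FPKM in R, on either side of vehicle at 1.86 and 1.68 FPKM. The E-type cyclins drive entry into S phase. Ccne1 was at 7.09 and 7.14 FPKM in R and at 6.05 and 5.72 FPKM in vehicle, without overlap. Ccne2 was at 1.88 and 2.75 FPKM in R and 1.995 and 2.12 FPKM in vehicle, with overlap, and its log2 fold change of 0.11 became -0.08 without R replicate 2.

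Of the 4 transcription factors none passed the test. Foxm1 and Mybl2, factors of the mitotic programme, lay higher in both R libraries than in either vehicle library, and E2f1 and E2f8 overlapped. The first order was found in 22.7% of all tested genes. Foxm1 was at 5.25 and 5.76 FPKM in R and at 4.42 and 4.62 FPKM in vehicle. Mybl2 was at 1.88 and 1.77 FPKM in R and 1.60 and 1.44 FPKM in vehicle. Their log2 fold changes were 0.24 and 0.16. E2f1, an activator of S-phase genes, was at 13.8 and 12.5 FPKM in R and at 12.8 and 14.2 FPKM in vehicle. Its groups overlapped, and its log2 fold change of -0.03 became 0.09 on the TPM scale and 0.01 in voom. It was also 0.03 without R replicate 2 or without vehicle replicate 2. E2f8, a repressor that acts late in S phase, was at 1.70 and 2.68 FPKM in R, on either side of both vehicle values, 1.95 and 1.76 FPKM. The difference between these factors was not tested.

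Genes that take a cell into and out of mitosis included the member with the largest log2 fold change. Cdc20, the activator of the anaphase-promoting complex, was at 29.1 and 25.3 FPKM in R and at 19.0 and 15.2 FPKM in vehicle. Each R library exceeded each vehicle library, by a ratio of means of 1.59, the highest of all 56 genes. Its log2 fold change was 0.65 (SE 0.155; limma, Benjamini-Hochberg adjusted p = 0.123), and with the gene length trend removed it passed (adjusted p = 0.0394). Plk1, the kinase that drives spindle assembly and mitotic entry, was at 15.5 and 16.6 FPKM in R and at 11.3 and 10.5 FPKM in vehicle. The groups were well apart, with a log2 fold change of 0.52 (SE 0.119; limma, Benjamini-Hochberg adjusted p = 0.112). Ccnb1, cyclin B1, the partner of Cdk1 in mitosis, was at 9.06 and 9.12 FPKM in R and at 6.44 and 6.46 FPKM in vehicle. The replicates of each group nearly coincided for Ccnb1, and the groups were apart, with a ratio of 1.41 and a log2 fold change of 0.44 (SE 0.113; limma, Benjamini-Hochberg adjusted p = 0.142). The exons of Cdc20 and Plk1 overlap Elovl1 and Gm44985 on the opposite strand, so some of their reads may belong to those genes.

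In GRCm38, Cdc20 (ENSMUSG00000006398) lies at 118432901 to 118437352 of chromosome 4, Plk1 (ENSMUSG00000030867) at 122159439 to 122169873 of chromosome 7 and Ccnb1 (ENSMUSG00000041431) at 100778650 to 100786570 of chromosome 13.

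Other genes of this role differed less. Cdk1, the kinase that cyclin B1 activates, was at 10.9 and 9.03 FPKM in R and at 9.12 and 9.22 FPKM in vehicle. Only R replicate 1 was above the vehicle libraries, and the log2 fold change of 0.10 turned to -0.02 without R replicate 1. Ccnb2, the other B-type cyclin of the list, averaged 17.8 ± 0.720 FPKM with R against 16.8 ± 0.291 FPKM with vehicle (SD, n = 2 each), a ratio of 1.06 without overlap. Ube2c, the ubiquitin-conjugating enzyme that works with the complex that Cdc20 activates, was at 12.2 ± 1.28 and 12.3 ± 0.454 FPKM (SD, n = 2 each) in R and vehicle. Cdc25c, a phosphatase that activates Cdk1, was at 2.83 ± 0.0707 and 2.85 ± 0.342 FPKM (SD, n = 2 each), and its reads could not be recovered. Ccna2 and Aurka, cyclin A2 and Aurora kinase A, did not overlap between the groups, with log2 fold changes of 0.20 and 0.27. Cdca3, which helps to degrade a Cdk1 inhibitor, had a log2 fold change of -0.08 and overlapping groups.

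The checkpoint and kinetochore genes, whose proteins join chromosomes to the spindle, held both directions. Bub1b, the checkpoint protein BUBR1, was at 7.98 and 9.06 FPKM in R and at 6.90 and 6.99 FPKM in vehicle, a ratio of 1.227. Cenpa, the histone H3 variant of centromeres, was at 8.87 and 8.96 FPKM in R and at 10.6 and 11.2 FPKM in vehicle. Bub1b lay higher and Cenpa lower in both R libraries, and neither passed limma's test, with Benjamini-Hochberg adjusted p = 0.381 for Bub1b and adjusted p = 0.344 for Cenpa. Cenpa had the lowest log2 fold change of all members, -0.26, followed by Ndc80, a microtubule-binding kinetochore subunit, at -0.18. Nuf2, the binding partner of Ndc80, had a log2 fold change of 0.03 and overlapping groups. Aurkb, the kinase of the chromosomal passenger complex, was at 9.20 and 7.41 FPKM in R and at 7.02 and 7.13 FPKM in vehicle. Birc5, survivin, in the same complex, was at 9.32 and 7.52 FPKM in R and at 9.72 and 7.67 FPKM in vehicle. Aurkb did not overlap, whereas Birc5 differed more within each group than between them. Its log2 fold change of -0.04 was above 0 on the TPM scale (0.09), in voom (0.01), without R replicate 2 (0.10) and without vehicle replicate 1 (0.11). Cdca8, borealin, the other passenger subunit of the list, had a log2 fold change of 0.08 and overlapping groups. The checkpoint kinases Bub1 and Ttk differed by 0.27 and 0.14 on the log2 scale, without overlap between the groups. The large kinetochore proteins Cenpe and Cenpf, with log2 fold changes of 0.01 and 0.15, overlapped.

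The median log2 fold change of the 10 spindle and cytokinesis genes was 0.27, with 0.15 in R replicate 1 and 0.35 in R replicate 2 against the vehicle mean. In this role both R libraries lay above both vehicle libraries in 7 of the 10 genes, an order found in 22.7% of all tested genes. Kif20a, a motor of the central spindle, was at 7.37 and 8.999 FPKM in R and at 5.30 and 5.37 FPKM in vehicle. Tpx2, which activates Aurora A on the spindle, was at 13.9 and 13.3 FPKM in R and at 10.8 and 10.5 FPKM in vehicle. Both were clearly apart between the groups, with ratios of 1.53 and 1.28 (limma; Benjamini-Hochberg adjusted p = 0.141 for Kif20a and adjusted p = 0.248 for Tpx2). The exons of Kif20a overlap those of Cdc23 on the opposite strand. The cytokinesis genes Prc1, Ect2, Anln and Kif23 were also higher in both R libraries than in either vehicle library. Their log2 fold changes were 0.38, 0.36, 0.52 and 0.21. Anln, which encodes the scaffold anillin, was at 4.93 and 7.58 FPKM in R and 3.79 and 4.15 FPKM in vehicle, so that R replicate 2 carried much of its difference. Without R replicate 1, Anln, Kif20a and Plk1 passed the test (limma, Benjamini-Hochberg; adjusted p = 0.0364 for Kif20a and adjusted p = 0.043 for Plk1), in a fit in which 2.56% of all genes rose. That fit takes its spread for R from the vehicle libraries. Kif2c, Hmmr and Kif11 had log2 fold changes of 0.16, 0.21 and 0.08, and Nusap1, at -0.07, was the only member of this group below 0.

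Mki67 and Top2a, the proliferation antigen and the topoisomerase that untangles sister chromatids, did not separate the groups. Mki67 was at 12.4 and 13.8 FPKM in R and at 10.7 and 13.9 FPKM in vehicle. Top2a was at 12.6 and 14.7 FPKM in R and at 11.9 and 12.7 FPKM in vehicle. The highest Mki67 value was that of a vehicle library, and its log2 fold change of 0.09 (95% interval from -0.30 to 0.48) turned to -0.09 without vehicle replicate 1.

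**Figure D3:**
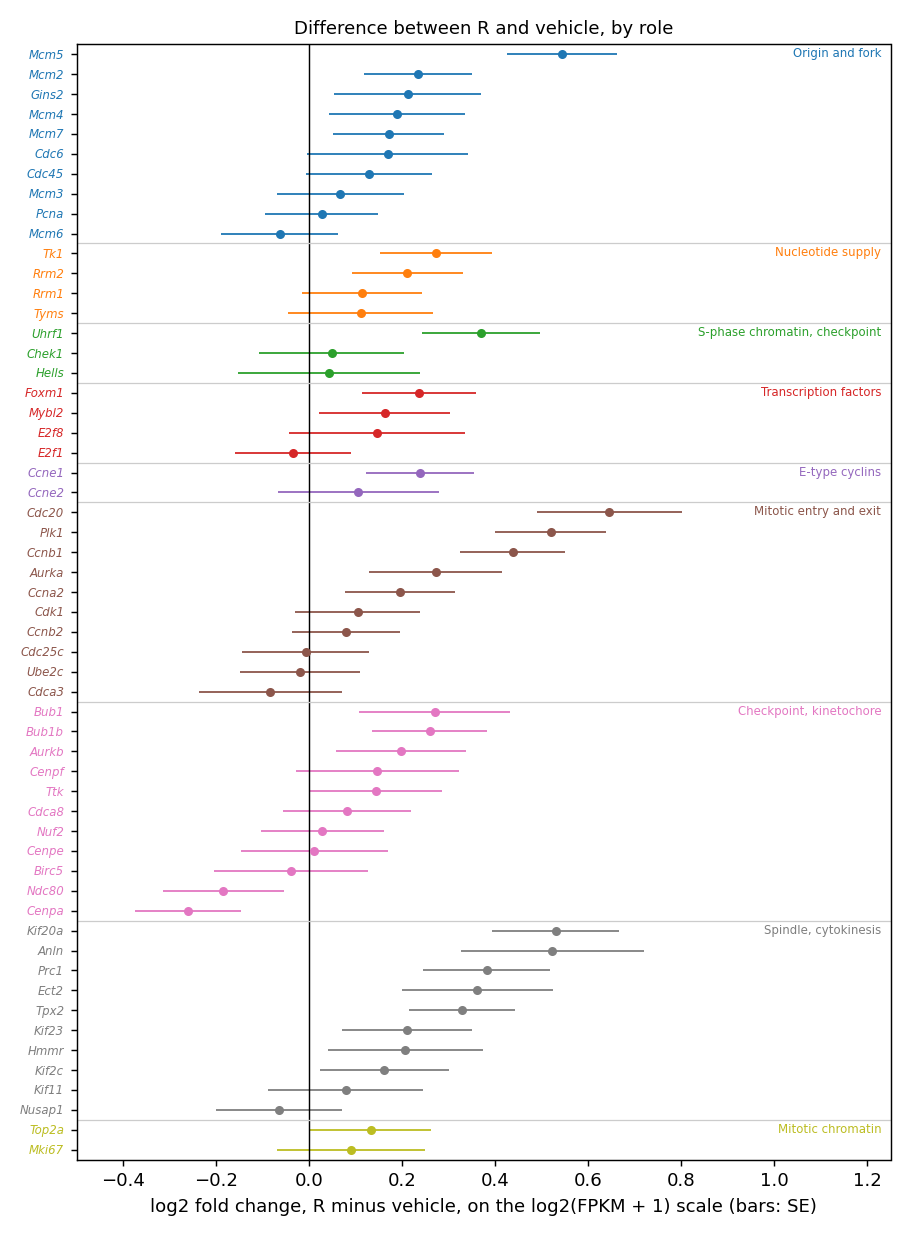
Log2 fold change of each gene, R minus vehicle, on the log2(FPKM + 1) scale, by role. Points are estimates from limma and bars their standard errors. Points lie from -0.26 for Cenpa to 0.65 for Cdc20, and 47 of 56 lie to the right of 0.

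Replication and mitotic genes were set against each other as classes. The 9 replication genes of the Mcm, Pcna and Rrm families had a median log2 fold change of 0.17 and the 33 mitotic genes one of 0.15, a difference of -0.024. By library, mitotic genes summed to 263 and 266 FPKM in R and to 228 and 224 FPKM in vehicle, a ratio of 1.17. The replication genes summed to 182 and 186 FPKM in R and to 168 and 168 FPKM in vehicle, a ratio of 1.097. Both sums were higher in each R library than in each vehicle library. The difference between the class medians was within its spread between replicates, an SD of 0.0397, and its sign changed with the setting, from -0.040 without vehicle replicate 1 to 0.043 without R replicate 1. Thus these data do not order the classes as listed here, with 9 replication and 33 mitotic genes. Outside the list, the medians were 0.12 for 50 tested genes of mitosis and 0.00 for 38 of replication. The difference between those 2 was not tested. Rescaling to TPM moved the median of all tested genes to 0.13 and both class medians to 0.31.

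Within the classes, the log2 fold changes of the mitotic genes ran from -0.26 to 0.65, and those of the fewer replication genes from -0.06 to 0.54. Mitotic genes with a CHR core in the promoter window had a median of 0.15 (n = 23) and those without one a median of 0.01 (n = 5). Replication and S-phase genes with and without an E2F core had medians of 0.11 (n = 9) and 0.17 (n = 6). These medians rest on few genes and were not tested.

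The R libraries differed from each other in many of these genes by more than the groups differed. The absolute log2 difference between R replicates 1 and 2 exceeded the absolute log2 fold change in 30 of 56 members, and that between the vehicle replicates in 16. Both R libraries were above the vehicle mean in 36 members. A difference between single libraries varies more than one between means of 2 libraries. The same counts were not taken over all tested genes, so they are not read as particular to the members. Over all tested genes the SD of the log2 ratio between replicates was 0.351 in R and 0.248 in vehicle. In R replicate 1 the median difference from the vehicle mean was 0.12 for mitotic genes and 0.15 for replication genes. In R replicate 2 these were 0.24 and 0.19. Spindle and cytokinesis genes had medians of 0.15 in R replicate 1 and 0.35 in R replicate 2. Genes of mitotic entry and exit had the reverse order, with 0.18 and 0.08. The 3 S-phase chromatin and checkpoint genes had medians of -0.03 and 0.28.

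**Figure D4:**
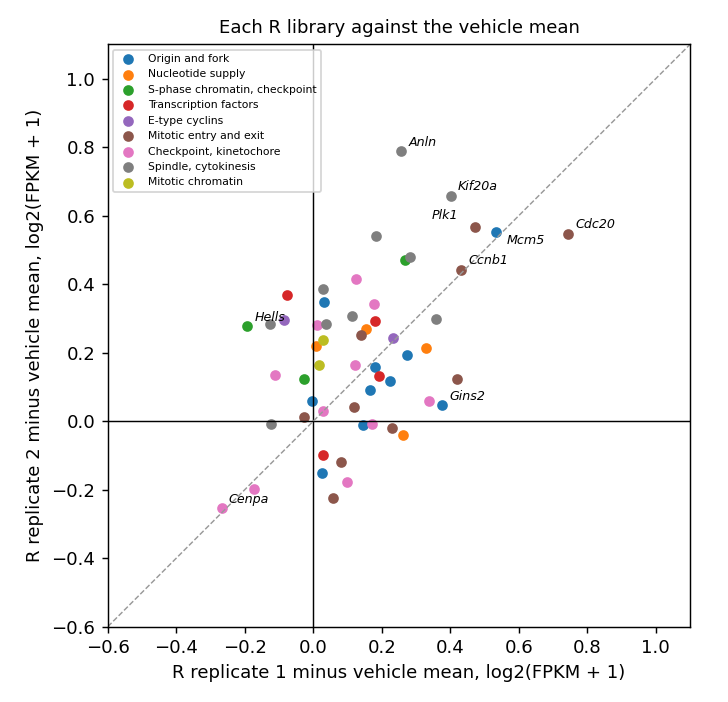
Difference of each R library from the vehicle mean on the log2(FPKM + 1) scale, R replicate 1 on the horizontal and R replicate 2 on the vertical axis, 1 point per gene, coloured by role. The dashed line marks equal values, and 36 of 56 points lie up and to the right of 0, where both R libraries are above the vehicle mean. The same count was not taken over all tested genes.

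These differences between the R libraries went with gene length. Across the 56 members the log2 difference of R replicate 2 from R replicate 1 had a Pearson correlation of 0.45 with log2 exon length (Spearman 0.43). For the vehicle replicates, 2 against 1, the Pearson value was 0.42, and across all 12173 tested genes with a length it was 0.41 for R and 0.23 for vehicle. The points of each such correlation share their libraries and are not independent. Of the 28 longer members, 19 were higher in R replicate 2 than in R replicate 1, with a median difference of 0.13. Of the 28 shorter members, 15 were higher, with a median of 0.01. At the same split, 4633.5 bases, 3775 of 5219 longer genes among all those tested were higher, with a median of 0.16. Of the 6954 shorter genes among all those tested, 2038 were higher, with a median of -0.17. Anln, Hells and Kif11, all longer, had the differences 0.53, 0.47 and 0.41, whereas Tyms, also longer, had -0.30. The log2 fold change between the groups had a Pearson correlation of -0.12 with length across the members. With the length trend removed, the class medians were 0.14 for mitotic and 0.17 for replication genes.

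**Figure D5:**
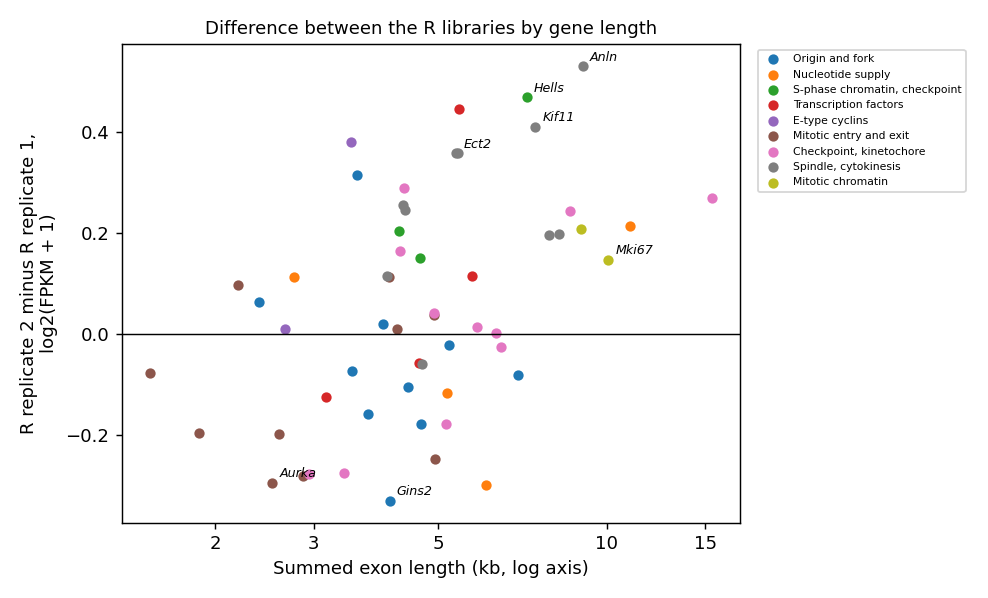
Log2 difference between R replicate 2 and R replicate 1 on the log2(FPKM + 1) scale (vertical axis) against summed exon length in kb (log axis) for the 56 genes, coloured by role. Of the 28 longer genes 19 lie above 0, and of the 28 shorter genes 15. Among all tested genes, not drawn, these were 3775 of 5219 longer and 2038 of 6954 shorter genes.

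Genes of the cell cycle outside the 56 were also tested, from lists chosen with earlier results known, and none was called in the fit used for the members. Of 50 tested genes of mitosis outside the list, 0 were called, 4 were higher at an unadjusted p under 0.05, a share near the 7.16% of all genes, and the median log2 fold change was 0.12. The smallest p among them were those of Spc24, a subunit of the NDC80 complex, at 4.67 and 4.75 FPKM in R and 3.17 and 2.64 FPKM in vehicle, Ckap2, a spindle protein, and Kifc1, a minus-end motor. In Spc24 both R libraries were above both vehicle libraries (ratio 1.62; limma, Benjamini-Hochberg adjusted p = 0.125), whereas its partner Ndc80 lay in the other order. Ckap2 and Kifc1 had ratios of 1.31 and 1.33. Of 38 tested genes of replication outside the list, 0 were called, 1 was higher at an unadjusted p under 0.05 and the median was 0.00. That 1 was Pold2, a subunit of DNA polymerase delta, at 15.2 and 13.0 FPKM in R and 10.1 and 7.82 FPKM in vehicle. Pold1, the catalytic subunit of the same polymerase, and Dut, the dUTPase, had log2 fold changes of 0.32 and 0.42.

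Of 20 tested genes of G1 and of the Rb, E2F and MuvB complexes, 0 were called and the median was 0.04. The D-type cyclins start the cycle in response to growth signals. Ccnd1, Ccnd2 and Ccnd3 all lay higher in both R libraries than in either vehicle library. That order was found in 5 of these 20 genes and in 22.7% of all tested genes. Ccnd3 differed least of them, with a log2 fold change of 0.22. Ccnd1 was at 48.7 and 67.8 FPKM in R and at 34.1 and 35.4 FPKM in vehicle, and Ccnd2 at 49.8 and 72.1 FPKM in R and at 36.2 and 43.0 FPKM in vehicle. Both were highest in R replicate 2, and neither passed limma's test, with Benjamini-Hochberg adjusted p = 0.139 for Ccnd1 and adjusted p = 0.251 for Ccnd2. Without R replicate 1 the log2 fold changes of Ccnd1 and Ccnd2 were 0.94 and 0.85, and without R replicate 2 they were 0.48 and 0.33. A fit with 1 R library takes its spread from the vehicle libraries, so only effect sizes are given. E2f5, a repressor E2F, was at 8.26 and 6.55 FPKM in R and at 9.70 and 10.3 FPKM in vehicle, lower in both R libraries. Its log2 fold change was -0.39, with -0.54 without R replicate 1 and -0.25 without R replicate 2.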

How the data were processed

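The deposited table held 1 FPKM value per gene and library, per the file headers, and its 10 empty columns were not used. The submitters' processing notes name GRCm38, mm10 and edgeR 3.18.1 without a role. The aligner, counting, strand setting and annotation were not stated: for each, not given in the sources used here. Of the members, 17 have exons that overlap another gene in GENCODE M21, 15 of them on the opposite strand.

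Symbols, coordinates (1-based) and exon lengths came from GENCODE M21, which matched 54495 of 54532 genes. FPKM multiplied by exon length gave whole reads, within 0.02, for 96.3 to 96.4% of values above 0. Recovered reads are summed over genes with whole values in all libraries, and 3 members (Cdc25c, Kif11 and Kif20a) are outside them. Values were tested as log2(FPKM + 1), which understates changes of low genes, in limma 3.58.1 (R 4.3.3) with a variance trend and Benjamini-Hochberg adjustment over all genes that averaged 1 FPKM or more. Residual degrees of freedom numbered 2, with a prior of 3.83. The code was tested on simulated libraries. Alternatives were other pseudocounts, filters, scales and tests, a replicate block and leaving out each library.

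The members and lists were chosen with earlier results of these data known. Values in every library are given for 19 listed members and for the 2 with the smallest p in each role, and of other cell cycle lists the 3 genes with the smallest p are named. Per-library values of Anln, Hells and E2f8, and the log2 fold change of Ccnd3, were added after they were seen. Promoter windows are from RefSeq (GRCm38.p6), with the first listed start shown.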

Additional observations from a re-analysis of the deposited data

How the results depend on the processing

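The count of called members was 0 in 10 of 13 alternatives. It was 2 with the gene length trend removed, 7 with the replicate number as a block, and 0 to 3 when 1 library was left out, with the 3 found without R replicate 1. The same numbers in both groups are not stated to mark a shared animal or day, and the deviations of same-numbered libraries correlated at 0.353. Of the 9 genes named by p-value outside the 56, the block also called Ccnd1, Ccnd2, Pold2, Spc24, Dut, Kifc1 and, as lower, E2f5. Their adjusted p ran from 0.00015 to 0.0401 in limma. With the replicate block 7.32% of all genes rose, and 1 residual degree of freedom was left. The replication median was 0.31 on the TPM scale and 0.23 in voom, and 0.15 to 0.19 with 1 library left out. The mitotic median was 0.31 on the TPM scale, 0.22 with a pseudocount of 0.1, 0.27 in voom, and 0.12 to 0.24 with 1 library left out. The difference between these medians was 0.034 with a pseudocount of 0.1, 0.037 in voom, and -0.040 to 0.043 with 1 library left out. The median of all tested genes was 0.13 on the TPM scale and 0.05 in voom. Of 488 values of named genes under the alternatives, 450 kept their direction and side of the threshold, 21 passed it and 17 changed sign.

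The sign changes concerned genes near 0. On the TPM scale the log2 fold changes were 0.07 for Mcm6, 0.09 for E2f1 and 0.09 for Birc5, and in voom 0.01 for E2f1 and 0.01 for Birc5. Leaving out a library gave -0.09 to 0.27 for Mki67, -0.04 to 0.17 for Mcm3, -0.15 to 0.03 for Mcm6, -0.01 to 0.06 for Pcna, -0.10 to 0.03 for E2f1, -0.02 to 0.23 for Cdk1, -0.19 to 0.11 for Birc5, -0.03 to 0.12 for Chek1 and -0.08 to 0.30 for Ccne2. The cause of these changes was not tested. The 2 libraries per group limit what can be called: no rise under 0.78 on the log2 scale was called in any gene with the settings of the report.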
